A study of Mus musculus with 2 samples.

Results

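The mouse miRNA families named Mir297, Mir466, Mir467 and Mir669 are encoded mostly by a dense cluster inside the gene Sfmbt2 on chromosome 2. The members were all annotated miRNA genes whose names begin with Mir297, Mir466, Mir467 or Mir669, which gave 81 of the 2202 miRNA genes in the deposited tables. Of these, 71 lie within Sfmbt2 on the strand of that gene and 10 lie at other places. The 71 comprise 5 Mir297, 23 Mir466, 14 Mir467 and 29 Mir669 genes, and the 10 comprise 1, 5, 3 and 1. The rule for membership uses names and positions and no measured value, although the families were taken up with earlier results of these data known. Sfmbt2 (ENSMUSG00000061186.15) spans chromosome 2 from 10370510 to 10595253 on the plus strand of mm10. All 71 members within it lie in 1 intron, which is intron 10 or 11 depending on the protein-coding transcript, from 10461473 to 10523944. From the first base of Mir466m to the last base of Mir669h they occupy 51.6 kb of that intron, and none of them overlaps an exon.

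A miRNA is cut from a hairpin precursor by the nucleases Drosha and Dicer, and it pairs with its targets mainly through its seed, the bases just behind its 5′ end. Sfmbt2 encodes a Polycomb-group protein with MBT repeats and is imprinted, with expression from the paternal allele in the early embryo and the placenta. Its intronic cluster is a rodent expansion of related hairpins known from embryonic stem cells and placenta. The hairpins are rich in alternating U and G or C and A, and many copies within the cluster resemble each other closely.

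Mature sequences are shown for the members outside Sfmbt2, because they display the repeat-like composition of these families and let the single counted gene among them be compared with the others. The RefSeq table for build GRCm38.p6 matched 9 of the 81 members by symbol, all 9 outside Sfmbt2, and gave a mature sequence for 8 of them. The other 2 members outside Sfmbt2 are Mir297-1 and Mir466f-4. The sequences run 5′ to 3′ and capitals mark the seed, bases 2 to 8.
mmu-miR-466q: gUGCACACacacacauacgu
mmu-miR-466i-3p: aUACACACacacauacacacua
mmu-miR-466j: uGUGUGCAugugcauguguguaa
mmu-miR-466k: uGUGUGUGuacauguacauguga
mmu-miR-467f: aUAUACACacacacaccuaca
mmu-miR-467g: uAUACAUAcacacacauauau
mmu-miR-467h: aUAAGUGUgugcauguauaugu
mmu-miR-669n: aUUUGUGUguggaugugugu
The 8 sequences had 8 different seeds. Among the 1738 mature entries of that table, 1 other miRNA, mmu-miR-668-5p, shared the seed of mmu-miR-467h, and none shared a seed with the other 7. No entry matched a member within Sfmbt2, so seeds shared with members of the cluster could not be seen. Uninterrupted alternating runs of U and G, or of C and A, reached 12 bases in mmu-miR-466q and mmu-miR-467f and at least 7 bases in each of the 8. The mmu-miR-467h sequence stood at 4 places among all annotated miRNA hairpins, and each of the other 7 stood at 1.

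The counts come from small RNA of wild-type mouse hippocampus (C57BL/6, strain B6NCrl, age 6 months), sequenced as 2 libraries of 1 group, called replicates 1 and 2 after their labels. The label calls the tissue a layer of the hippocampus without saying which, and the samples carry no treatment or genetic change. The labels describe a male although the sex field reads as not collected, and they give both libraries 1 donor identifier under separate biosample identifiers, and p-values between them may therefore reflect technical spread alone. Replicate 1 held 4247092 and replicate 2 held 5041568 reads counted on miRNA genes, and levels are given as CPM, counts scaled to a library of 1000000 of these reads. Reads with several places of alignment were counted on no gene, and they made up 43.8% of all reads in replicate 1 and 45.7% in replicate 2. Among the tissue markers, 8 of 13 neuronal miRNA genes reached 10 CPM in both libraries, at a summed 204051 and 182618 CPM in replicates 1 and 2, and none of the 13 was at 0. All 12 miRNA genes of pluripotent cells that were examined, Mir290a to Mir295 and Mir302a to Mir367, were at 0 counts in both.

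In reads that aligned to 1 place, the members within Sfmbt2 were measured at a low summed level that a few of them carried. They summed to 765 CPM in replicate 1 (0.0765% of counted reads, exact 95% interval 0.0739 to 0.0792%). In replicate 2 the sum was 979 CPM (0.0979%, exact 95% interval 0.0952 to 0.101%). The mean was 872 ± 152 CPM (SD, n = 2). Intervals cover counting error within a library only. No molecular identifiers are named that would separate PCR copies, so the intervals may be too narrow even for that error. Of the 71, 13 had at least 1 count in either library and 58 had none, and 6 reached 10 CPM in both. Over all 2202 miRNA genes, 36.3% had a count in either library and 13.7% reached 10 CPM in both. For the members within Sfmbt2, the share at 10 CPM was 8.45%. A miRNA read covers a whole mature molecule, so levels of different genes were compared without dividing by length.

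In reads that aligned to 1 place, Mir467d had the highest level of the families. It lies from 10507630 to 10507714 on chromosome 2 and had 315 CPM in replicate 1 and 478 CPM in replicate 2. That placed it at rank 138 and rank 123 of the 2202 genes. It gave 41.2% of the counts of the cluster in replicate 1, with an exact 95% interval of 39.5 to 42.9%, and 48.8% in replicate 2, with an interval of 47.4 to 50.2%. Mir669c, from 10509296 to 10509404, followed with 142 CPM and 230 CPM. Both libraries placed these 2 genes first and second, and they lie 1.58 kb apart in the 3′ stretch of the cluster, with Mir466 and Mir297c, both at 0 counts, between them. Together they gave 59.7% of the cluster's counts in replicate 1 and 72.3% in replicate 2. These shares leave out reads with several places of alignment, so they are not shares of all miRNA made from the cluster.

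A second tier of 4 genes stood between 43.6 and 95.6 CPM. Mir669o, from 10514300 to 10514395, had 81.2 CPM in replicate 1 and 95.6 CPM in replicate 2. Mir467e, from 10505721 to 10505807, had 76.8 and 53.4 CPM, and Mir467c, from 10473931 to 10474027, had 69.2 and 60.5 CPM. Mir669l, from 10468971 to 10469068, had 53.4 and 43.6 CPM. Mir669o led this tier in both libraries, while Mir467e was above Mir467c in replicate 1 and below it in replicate 2, so the order of that pair was not fixed. The 6 genes named so far gave 96.4% of the cluster's counts in replicate 1 and 98.2% in replicate 2, again in reads that aligned to 1 place.

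Mir669h and Mir669e were at 10 CPM in 1 library only. Mir669h, at the 3′ end of the cluster from 10518155 to 10518279, had 59 counts (13.9 CPM) in replicate 1 and 49 counts (9.72 CPM) in replicate 2. Mir669e, near the 5′ end from 10467495 to 10467613, had 54 counts (12.7 CPM) and 35 counts (6.94 CPM). The remaining 5 counted genes had 3 counts or fewer in each library, at or below the level of 0.706 CPM in replicate 1 and 0.595 CPM in replicate 2 that a count of 0 allows. Mir669f had 3 and 0 counts, Mir297a-2 had 1 and 2, Mir466d had 0 and 3, Mir467b had 1 and 0, and Mir466g had 0 and 1. In this last tier only Mir297a-2 was counted in both libraries.

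**Figure D1:**
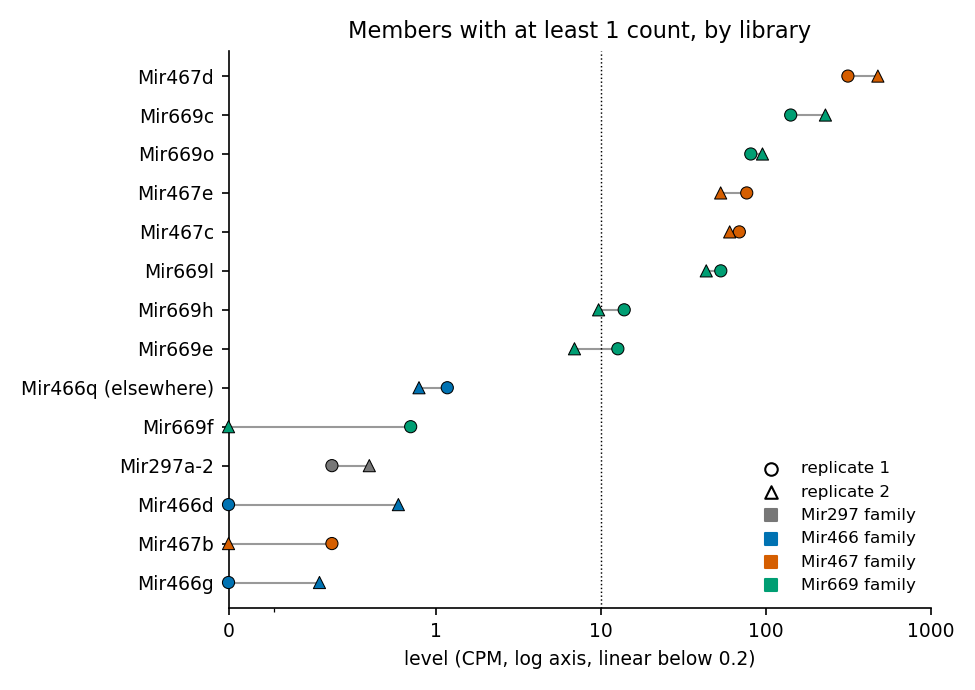
Level of each of the 14 members with at least 1 count, in CPM on an axis that is logarithmic above 0.2 and linear below, with circles for replicate 1, triangles for replicate 2 and colours for the family. The dotted line marks 10 CPM; 6 genes lie above it in both libraries, and Mir467d and Mir669c lie above 100 CPM in both.

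The families differed in how many members were counted. Within Sfmbt2, the 14 Mir467 genes summed to 461 and 592 CPM in replicates 1 and 2, from 4 counted genes. The 29 Mir669 genes summed to 304 and 386 CPM from 6 counted genes. The 23 Mir466 genes held 0 and 4 counts from 2 counted genes, and the 5 Mir297 genes held 1 and 2 counts, all on Mir297a-2. The Mir467 and Mir669 sums thus exceeded those of Mir466 and Mir297 in both libraries, in the reads that aligned to 1 place. The order Mir467, then Mir669, was the same in both libraries and rested on Mir467d.

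Outside Sfmbt2, Mir466q was the only member with a count, and no member reached 10 CPM. Mir466q, from 28419943 to 28420018 on chromosome 3, had 5 counts (1.18 CPM) in replicate 1 and 4 counts (0.793 CPM) in replicate 2. It lies in an intron of Tnik on the same strand, a gene for a kinase of neurons and other cells. It was also the only one of the 10 that lies within a protein-coding gene on the same strand. Any link between this position and its counts was not tested. Mir466k, Mir669n, Mir467g, Mir467f and Mir466i lie in introns on the opposite strand of Gm37240, Slc30a7, Grk4, Fxr2 and Cdk13, in that order. Mir297-1, Mir467h, Mir466j and Mir466f-4 overlap no annotated gene other than miRNA genes. These 9 had 0 counts in both libraries, which allows up to 0.706 CPM and 0.595 CPM of reads with a single alignment.

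Along the cluster, in reads that aligned to 1 place, counted genes lay toward both ends and the middle was nearly empty of counts. The stretches were drawn after the values were seen, with Mir467c and Mir467e as the boundaries, so the contrast is a description. The 5′ stretch from Mir466m to Mir467c spans 7.37 kb and holds 13 members, of which 5 were counted, with sums of 136 and 111 CPM in replicates 1 and 2. The middle stretch between Mir467c and Mir467e spans 29.7 kb and holds 38 members. It gave 1 count in replicate 1, on Mir467b, and 0 in replicate 2. The 3′ stretch from Mir467e to Mir669h spans 12.6 kb and holds 20 members, of which 7 were counted, with sums of 628 and 868 CPM. The middle contains all 10 Mir467a genes, both Mir669p genes and all numbered Mir466b and Mir466c genes. Every Mir669a gene except Mir669a-2 lies there too. The remaining numbered copies, such as Mir466f-1 and Mir669m-1, lie toward the ends.

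**Figure D2:**
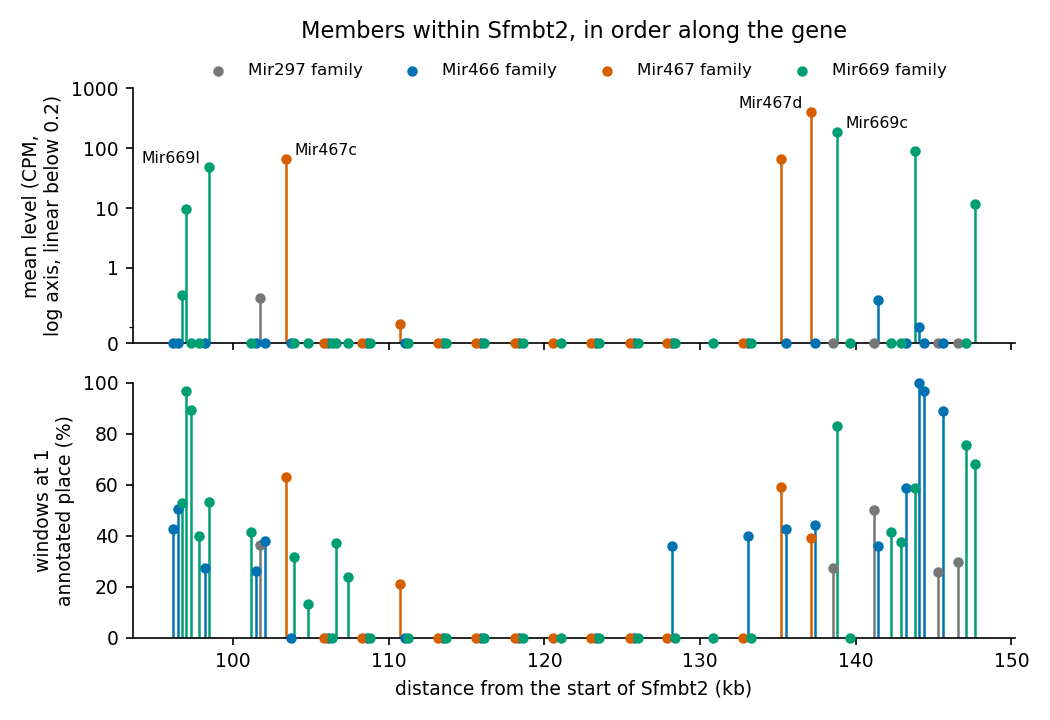
The 71 members within Sfmbt2 by distance from the start of the gene in kb, with the mean CPM of both libraries above (logarithmic above 0.2) and the share of each hairpin's windows of 22 bases that stand at 1 annotated place below. Points at 0 have no count or no such window; the middle 29.7 kb holds 38 members and 1 count.

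How much sequence each hairpin shares with the rest was measured from the annotation alone. Every hairpin was read in windows of 22 bases, about the length of a mature miRNA, and each window was searched on both strands in all 2202 annotated hairpins. The copies are close: 24 of the 81 hairpins were identical in full to at least 1 other, and the 81 genes held 63 distinct sequences. The largest identical set was 9 genes, Mir669a-4 to Mir669a-12, and the next was 6 of the Mir467a genes. Windows of the Mir669 genes stood at up to 32 places, and windows of the Mir467 genes within Sfmbt2 at up to 15. Windows of Mir466q, Mir466i and Mir466k, outside the cluster, stood at up to 761 positions within annotated hairpins. Steps between T and G or between C and A, in either order, made up 51.2% of the steps of the median member within Sfmbt2 and 55.4% of the median member elsewhere, beside 26.7% for the 2121 other miRNA genes.

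Members with counts all had some sequence that stood at 1 annotated place only. Of the 71 members within Sfmbt2, 39 had at least 1 window that stood at 1 annotated place, and 13 of these were counted. The other 32 had none, and all 32 were at 0 counts in both libraries. Of these 32, 31 lie in the middle stretch of the cluster. All 10 members elsewhere had such a window, and the total of 49 was the same when windows also found in annotated transcripts of other genes were set aside. Leaving out reads with several places of alignment bears directly on this, so a 0 on those 32 genes sets no limit on their level. A window may lie outside the mature molecule, and copies outside annotated hairpins and transcripts were not searched for. A window at 1 annotated place therefore does not assure that a gene's reads align to 1 place, and a 0 there may also miss reads. Among the 2121 miRNA genes outside the 4 families, 265 had no such window, and 4 of these were counted. The other 1856 had at least 1 such window, and 781 of these were counted.

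Within the Mir467 family the 2 sets coincided. The 4 genes with a window at 1 place, Mir467b, Mir467c, Mir467d and Mir467e, were the 4 genes with counts, and the 10 Mir467a genes had neither. Within the Mir669 family, 16 of 29 had such a window and 6 were counted. Within the Mir466 family, 14 of 23 had one and 2 were counted, with 4 counts in all. All 5 Mir297 genes had one, and 1 was counted.

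Levels varied widely among members with windows at 1 place. The genes given here were picked after their values were seen. Mir467d, with the highest level, had 39.1% of its 64 windows at 1 place, and Mir669c had 83% of 88. Mir466g had all 59 of its windows at 1 place and held 0 and 1 counts. Mir466h (96.7% of 60 windows), Mir669b (89.5% of 76) and Mir466l (89% of 100) had 0 counts in both libraries, whereas Mir669e (96.9% of 98) had 54 and 35. Outside Sfmbt2, Mir669n had all 33 windows at 1 place and 0 counts. The median share was 58.7% over the 13 counted members within Sfmbt2 and 40% over the 26 members there that had a window at 1 place and no count. Among the 7 members with such a window in the middle stretch, 1 was counted.

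**Figure D3:**
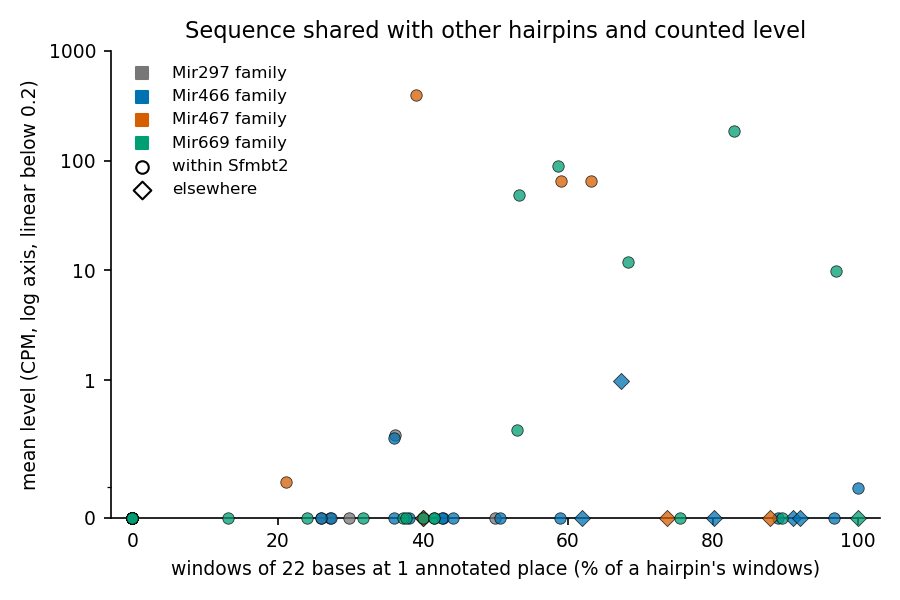
Mean CPM of both libraries (logarithmic above 0.2) against the share of a hairpin's windows of 22 bases at 1 annotated place, for all 81 members, with circles within Sfmbt2 and diamonds elsewhere. All members at 0% lie at 0 CPM, and members near 100% lie between 0 and 9.83 CPM.

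The 2 libraries were compared for the 8 members with at least 10 counts over both, all within Sfmbt2. The exact two-sided binomial test asked whether the replicate 2 count was larger or smaller than the library sizes imply. It compares the reads of 2 libraries and not conditions. Of the 522 miRNA genes tested, 51% passed after Benjamini-Hochberg adjustment over all of them, 28.2% as higher and 22.8% as lower in replicate 2. Of the 8 members, 3 passed as higher, 2 passed as lower and 3 did not pass, so 5 of 8 were called, a share near that of all genes. With TMM or DESeq2 scaling the split of members was 2 higher and 4 lower. Over all 522 genes TMM scaling gave 123 higher and 135 lower, and DESeq2 scaling gave 122 and 135.

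Counted members of the 3′ stretch did not all move the same way. Mir467d was 1.52-fold higher in replicate 2, a log2 ratio of 0.60 (exact 95% interval 0.51 to 0.70, adjusted p = 7.59e-35 by the exact binomial test). Mir669c was 1.62-fold higher (log2 ratio 0.70, exact 95% interval 0.56 to 0.84, adjusted p = 4.16e-22). Mir467e, the next member of its family upstream of Mir467d, was lower in replicate 2 (log2 ratio −0.52, exact 95% interval −0.76 to −0.29, adjusted p = 2.92e-05). The intervals of Mir467d and Mir669c overlap each other, and neither overlaps that of Mir467e.

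Mir669e was also lower (log2 ratio −0.87, exact 95% interval −1.53 to −0.23, adjusted p = 0.0119). Mir669o passed narrowly as higher, at a log2 ratio of 0.23 and an adjusted p of 0.0421 by the exact test, and did not pass with TMM scaling (0.16, adjusted p = 0.191). Over the alternatives its adjusted p ranged from 0.0321 to 0.204 by the exact test. Mir467c (−0.19), Mir669l (−0.29) and Mir669h (−0.51) did not pass, with adjusted p of 0.166, 0.0626 and 0.116 by the exact test. With TMM scaling Mir467c (adjusted p = 0.0481) and Mir669l (adjusted p = 0.0174) passed as lower by the exact test. Over the alternatives the adjusted p of that test ranged from 0.0481 to 0.236 for Mir467c and from 0.0173 to 0.0941 for Mir669l. The 5 tested genes below Mir669o in level thus had log2 ratios under 0, and the 3 highest had ratios above 0.

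The median log2 ratio was −0.24 over the 8 members and 0.09 over the 522 genes. The median absolute log2 ratio was 0.52 over the 8 and 0.46 over the 522, which were not matched to the members for counts. The 522 needed only 10 counts over both libraries, while Mir669e, the lowest of the 8, had 54 and 35. The summed level within Sfmbt2 had a log2 ratio of 0.36 (exact 95% interval 0.29 to 0.42), and without Mir467d it was 0.15. Lists of cell type markers differed between the libraries to unequal degrees. The choroid plexus list (Mir204, Mir448, Mir1298, Mir34b and Mir34c) had sums of 11395 and 3438 CPM in replicates 1 and 2. All 5 of its genes reached 10 CPM in both libraries, and none was at 0. The oligodendrocyte list (Mir219a-1, Mir219a-2 and Mir338) summed to 5817 and 8786 CPM, with 2 of 3 genes at 10 CPM in both and none at 0. The log2 ratios of these 2 sums were −1.73 and 0.60, beside −0.16 for the neuronal list, −0.13 for the microglia and blood list and 0.30 for the endothelial gene Mir126a. Their part in the ratios of the members was not tested.

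**Figure D4:**
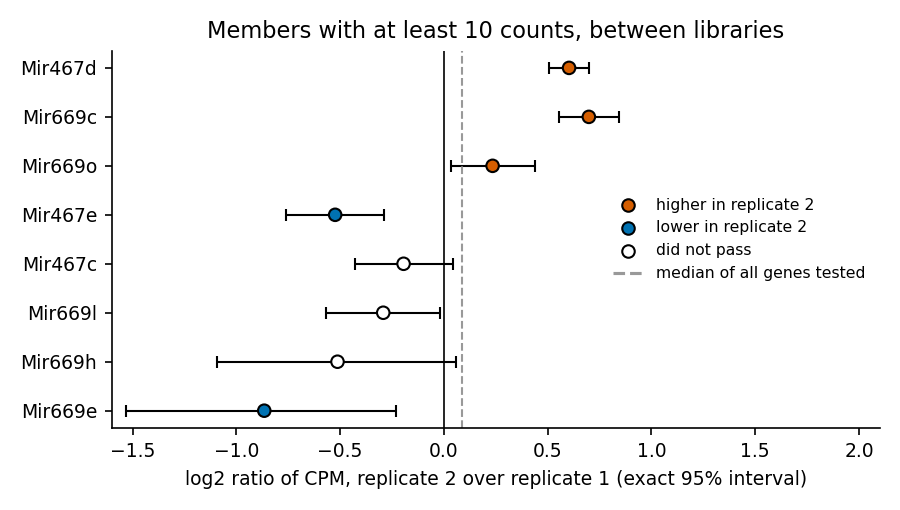
Log2 ratio of CPM, replicate 2 over replicate 1, of the 8 members with at least 10 counts, ordered from the highest level at the top, with exact 95% intervals from counting error. Filled points passed the exact binomial test, and the dashed line is the median of the 522 genes tested, 0.09; the 3 genes with the highest level lie above 0 and the other 5 below.

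Sfmbt2 also holds miRNA genes of other names, and their positions relative to the cluster were not examined. Within Sfmbt2, on its strand, the annotation places 48 further miRNA genes, all with provisional Gm names. They summed to 3 counts in each library. Gm25263 had 3 and 0 counts, Gm22072 had 0 and 2, and Gm26491 had 0 and 1, and the other 45 had none. Over all 2202 miRNA genes, the share with a count in either library was 36.3%. Of the 48, 26 had a window at 1 annotated place, and the 3 counted genes were among them. Of the 119 miRNA genes within Sfmbt2, the 6 that reached 10 CPM in both libraries were all Mir467 or Mir669 genes.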

How the data were processed

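Small RNA libraries of 1 group of 2 samples were used. The authors deposited unnormalised read counts for each miRNA gene, made on mm10 with GENCODE M21, per the file headers. The aligner and counter were not given in the sources used here. Sense-strand counts were taken, and 4 summary rows stayed out of library sizes. Reads on miRNA genes numbered 4247092 in replicate 1 and 5041568 in replicate 2.

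A member counted as detected at 10 CPM in both libraries. Genes with 10 or more counts over both libraries were tested by an exact two-sided binomial test with Benjamini-Hochberg adjustment at 0.05. Log2 ratios had 0.5 counts added, and summed ratios none. With 1 library on each side, edgeR's quasi-likelihood test could not be fitted. Hairpin windows came from the M21 transcripts. No genome sequence was used, so copies outside annotated hairpins were not searched for in introns or between genes. Procedures were tested on simulated data.

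Named were members at 10 CPM in either library, the 12 highest within Sfmbt2, the 6 highest elsewhere, each family's highest and those passing the test. Mir466g, genes named for their windows or hosts and the Gm genes were chosen after their values were seen. The members, lists and tests were chosen with earlier results of these data known. Alternatives changed the strand column, scaling, minimums, library, window length and the rule for lying within Sfmbt2. Python 3.11.15, numpy 2.4.6, pandas 2.3.3, scipy 1.17.1, matplotlib 3.10.9, R 4.3.3, edgeR 4.0.16 and DESeq2 1.42.0 were used.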

Additional observations from a re-analysis of the deposited data

How the results depend on the processing

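The summed level within Sfmbt2 was 872 CPM. Scaled to all reads of the tables it was 342 CPM. It was 476 CPM without Mir467d, and 765 to 979 CPM in single libraries. Elsewhere the sum of 0.985 CPM became 0.383 CPM when scaled to all reads and 0 without Mir466q, and ranged from 0.793 to 1.18 CPM in single libraries. Of the 6 members within Sfmbt2 at 10 CPM, 2 reached 100 CPM in both libraries, and single libraries gave 6 to 8. Elsewhere 1 gene had a count in both libraries. The summed log2 ratio of 0.36 became 0.28 with TMM or DESeq2 scaling and 0.15 without Mir467d. Of the 5 members that passed between libraries, 3 did so with a minimum of 1.5-fold, and over all genes 130 in place of 266. Of 40 values of single genes under alternatives, 30 kept their side of the threshold, 5 lost it, 5 gained it and none changed sign. With counts without regard to strand, whose library sizes are smaller, 7 members within Sfmbt2 reached 10 CPM, and the sums were 937 CPM within Sfmbt2 and 1.06 CPM elsewhere. Allowing either strand of Sfmbt2 left the sums and counts as they were, and windows of 18 or 20 bases left the count of 49. Depth limits genes under 3 counts, and reads aligned to several places are in no level given here. No paired analysis was possible because the samples form 1 group.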

Other observations

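Other large miRNA clusters of the same libraries gave other counts of detected genes. In the imprinted Dlk1-Dio3 region on chromosome 12, 46 of 65 miRNA genes from Mir770 to Mir3072 reached 10 CPM in both libraries. That share was 70.8%, beside 13.7% of all 2202 miRNA genes. The 65 genes summed to 130681 and 120880 CPM in replicates 1 and 2. In the X-chromosome cluster around Mir465, none of 18 genes reached 10 CPM, and the sum was 2 counts in replicate 1 and 12 in replicate 2. No test was made between clusters, and the share of reads lost to several places was not measured for any of them.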
